A study of Rattus norvegicus with 11 samples.

Results

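The proteasome and immunoproteasome genes were examined in ventricular myocytes of adult rats, as the rows of the authors' deposited table whose gene symbol begins with Psm, a letter from a to g and a digit. The rule found 49 of 17257 rows, of which 48 had reads and 1, Psma8, was listed at 0. The comparison set 5 female against 6 male wild-type Sprague Dawley rats aged 3 to 4 months. The animals carried no transgene and received no treatment. Myocytes were isolated with a Langendorff apparatus, which perfuses the heart through the aorta, were plated for 45 minutes and were then frozen. Total RNA depleted of ribosomal RNA was sequenced, and the question addressed was which transcripts differ between the sexes. Such a preparation can hold other heart cells, and in RNA from many cells at once, fewer cells of a type and less RNA per cell cannot be told apart. Not every matched row is a separate subunit. Psmc3ip is named for an interaction with Psmc3 and acts in meiotic recombination, and RefSeq lists Psma3l as an older symbol of Psma3.

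The proteasome degrades proteins that carry ubiquitin chains. Its barrel-shaped core has outer rings of alpha subunits, which gate the entrance, and inner rings of beta subunits, some of which cut peptide bonds. A regulatory cap sits on the core; the base of the cap holds ATPases that unfold the substrate, and its lid removes ubiquitin. Interferon gamma induces replacement beta subunits, Psmb8, Psmb9 and Psmb10, which form the immunoproteasome, and the activator subunits Psme1 and Psme2. The core so assembled yields peptides suited to display on MHC class I molecules. In heart muscle, where cells are rarely replaced, the proteasome is a main route for the turnover of damaged and sarcomeric proteins.

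Promoter sequences are shown for the 4 members that passed the test between the sexes and for the 3 immune subunits, because a proteasome gene can be reached by regulators of its whole set or by interferon-driven factors. RefSeq promoters on build GRCr8 matched 43 of the 49 members. Each line below holds the 250 bases before the start used in that table, 5′ to 3′ on the gene's strand. The windows are chr10:55737638-55737887 on the plus strand for Psmb6, chr8:64236270-64236519 on the plus strand for Psma4, chr15:21022064-21022313 on the plus strand for Psmc6 and chr14:108706393-108706642 on the plus strand for Psme4. Those of the immune subunits are chr20:4657032-4657281 on the minus strand for Psmb8, chr20:4668750-4668999 on the plus strand for Psmb9 and chr19:50743293-50743542 on the minus strand for Psmb10. Capitals mark matches, on either strand, to TGACNNNGC, the core of the antioxidant response element read by Nfe2l1 and Nfe2l2, and to a pair of GAAA stretches 2 bases apart, a core of the interferon-stimulated response element.
Psmb6: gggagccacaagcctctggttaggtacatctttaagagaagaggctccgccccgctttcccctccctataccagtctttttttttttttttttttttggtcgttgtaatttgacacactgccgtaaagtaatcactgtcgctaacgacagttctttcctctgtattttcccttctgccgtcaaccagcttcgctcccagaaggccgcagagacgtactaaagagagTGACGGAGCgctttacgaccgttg
Psma4: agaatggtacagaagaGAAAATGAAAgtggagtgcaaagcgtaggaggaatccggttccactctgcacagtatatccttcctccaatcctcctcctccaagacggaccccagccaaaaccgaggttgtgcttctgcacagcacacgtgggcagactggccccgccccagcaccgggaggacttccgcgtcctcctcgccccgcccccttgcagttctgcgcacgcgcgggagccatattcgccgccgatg
Psmc6: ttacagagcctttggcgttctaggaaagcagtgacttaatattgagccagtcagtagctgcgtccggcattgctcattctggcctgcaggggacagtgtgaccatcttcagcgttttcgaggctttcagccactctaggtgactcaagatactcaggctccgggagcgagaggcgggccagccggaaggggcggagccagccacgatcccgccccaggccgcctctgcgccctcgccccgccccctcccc
Psme4: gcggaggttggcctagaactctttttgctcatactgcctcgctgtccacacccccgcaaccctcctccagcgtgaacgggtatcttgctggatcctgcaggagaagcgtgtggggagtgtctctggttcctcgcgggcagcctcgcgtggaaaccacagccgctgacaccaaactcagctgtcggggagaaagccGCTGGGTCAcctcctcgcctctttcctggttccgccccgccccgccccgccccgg
Psmb8: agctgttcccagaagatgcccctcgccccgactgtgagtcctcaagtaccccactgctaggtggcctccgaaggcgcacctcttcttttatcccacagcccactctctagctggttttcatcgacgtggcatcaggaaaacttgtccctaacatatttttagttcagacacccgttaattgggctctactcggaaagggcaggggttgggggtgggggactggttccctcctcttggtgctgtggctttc
Psmb9: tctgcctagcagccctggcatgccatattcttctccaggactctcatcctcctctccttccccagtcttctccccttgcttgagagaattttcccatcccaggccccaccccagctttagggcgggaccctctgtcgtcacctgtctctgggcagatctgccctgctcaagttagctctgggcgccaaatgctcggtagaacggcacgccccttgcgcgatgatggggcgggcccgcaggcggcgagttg
Psmb10: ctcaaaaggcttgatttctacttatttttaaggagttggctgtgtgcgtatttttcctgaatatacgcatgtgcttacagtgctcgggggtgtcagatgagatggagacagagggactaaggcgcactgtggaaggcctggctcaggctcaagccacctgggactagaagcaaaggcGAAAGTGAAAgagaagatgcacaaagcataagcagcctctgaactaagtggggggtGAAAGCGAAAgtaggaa

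TGACNNNGC matched once in Psmb6, beginning 24 bases before the start, and once in Psme4, 55 bases before it. The GAAA pair matched in Psma4 at 234 bases and in Psmb10 at 73 and 17 bases before the start. Neither motif was found in the windows of Psmc6, Psmb8 and Psmb9. TGACNNNGC occurred in 7 of the 43 member promoters, or 16.3%, against 10.1% of 33469 rat promoters of the same length. The GAAA pair occurred in 5 of 43, or 11.6%, against 3.41% of all promoters. CCAAT, the box bound by NF-Y and also searched on both strands, occurred in 20 of 43, or 46.5%, against 34.0%. CCAAT is not in capitals above, and none of its matches was used to choose the sequences shown. A match describes letters only, and binding was not measured here.

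Few proteasome genes differed between the sexes. Of the 48 measured members, 4 passed the threshold of the authors' deposited table, an adjusted p under 0.05, which is 8.33%, against 14.5% of all 13346 genes with reads. The constitutive catalytic subunit Psmb6 was higher in females. The alpha subunit Psma4, the ATPase Psmc6 and the activator Psme4 were lower in females. Across all genes 6.71% were called higher in females and 7.76% lower. Since calls become more frequent with depth, the same count was taken over genes with a mean of at least 1000 normalized counts. There the 4 calls fell among 35 members, or 11.4%, against 27.1% of 3573 genes. The members' share was below that of all genes by either count, and no test was made of that difference. Their differences were also small. The median size of the log2 fold change was 0.13 over the members and 0.34 over all genes, and 0.13 against 0.27 above a mean of 1000. In 34 of 48 members the group means lay within 1.2-fold of each other. The median signed log2 fold change, female over male, was 0.04 over the members and -0.01 over all genes, and 27 members were positive and 21 negative. An unadjusted p under 0.05 was reached by 10 members, 5 in each direction, which is 20.8% against 27.3% of all genes.

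**Figure D1:**
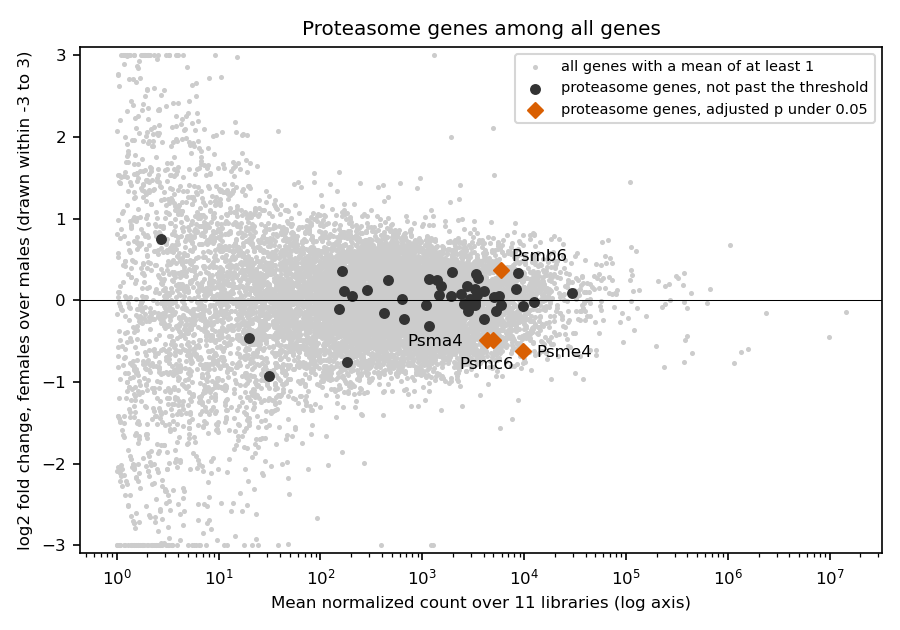
Log2 fold change, females over males, against the mean normalized count over 11 libraries on a log axis, for all genes with a mean of at least 1 (grey), proteasome genes not past the threshold (black) and those past it (orange diamonds). Values beyond -3 or 3 are drawn at those limits, and the 4 diamonds are Psmb6 at 0.37, Psma4 and Psmc6 at -0.49 and Psme4 at -0.62.

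The values are the authors' means of normalized read counts, that is, gene counts divided by a size factor for each library. They are not per transcript length, so levels are compared between the sexes and not between genes. The table gives no spread, and the intervals below are approximate 95% intervals derived from the authors' p. The authors' p-values rest on rats labelled as biological replicates. Where the number of reads in each library could be recovered from the digits of a mean, the libraries are shown. For the 4 members that passed the test this could not be done, and only group means are available.

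The levels of other cells' markers and the scaling of the groups stand beside all of these results. The 7 measured fibroblast markers summed to 8968 normalized counts in females and 18075 in males, and 0 were called higher and 3 lower in females. A single collagen gene made up most of that gap. Dcn, Pdgfra and Lum were negative without passing the threshold, and Tcf21 was positive, at 0.17 on the log2 scale, also without passing. The 8 endothelial markers summed to 19602 in females and 19643 in males, with 2 called higher and 1 lower in females. Among all genes with reads, 14.5% were called in either direction, and 27.1% of those with a mean of at least 1000. The marker counts were not tested against these shares. Genes listed by Ensembl identifier alone took 50.7% of the summed means in females and 57.5% in males. When the groups were scaled to equal sums over the symbol rows, every log2 fold change fell by 0.06, 8 members changed sign, and 19 members were positive and 29 negative; the 4 called genes and the 7 alpha subunits kept their signs. Centring instead on the median of genes with a mean of at least 50 changed 0 signs and left 27 members positive and 21 negative. The part of other cells' RNA in the called differences was not tested.

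Among the alpha subunits of the core, all 7 had a negative log2 fold change and 1 passed the test. The authors' deposited table gave Psma4 a mean of 3502 normalized counts in females and 4916 in males, a fold of 0.712 and a log2 fold change of -0.49 (interval -0.76 to -0.22; DESeq, adjusted p = 0.00733). Psma4 was therefore lower in females by a margin beyond the replicate error of the authors' fit. Psma3, whose amino-terminal tail contributes to the closed gate, had the largest difference of the ring, 133 in females and 224 in males, which is -0.75 on the log2 scale (interval -1.35 to -0.16) and missed the threshold at an adjusted p of 0.0748 (authors' deposited table). Psma3 libraries could be resolved in females alone, where they ran from 89.9 to 178 normalized counts with a mean of 133 ± 39.0 (SD, n = 5). The spread in females was thus wide, and that in males is not known for this gene. Psma2 had 3652 in females and 4271 in males, and Psma5 599 and 702, each with -0.23 on the log2 scale, and the authors' deposited table put their adjusted p at 0.287 and 0.423. Psma1, Psma6 and Psma7 lay between -0.08 and -0.05 on the log2 scale. Summed over the ring, the means were 16471 in females and 19083 in males, a fold of 0.863. The 7 genes were measured in the same libraries, so their shared sign is a description and was not tested.

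The row Psma3l held few reads. Its normalized counts were 28.2, 19.0, 12.4, 14.4 and 8.2 in the 5 female libraries, against 30.7, 25.3, 23.8, 39.2, 1.2 and 16.03 in the 6 male libraries. The groups overlapped over most of their range, with 1 male library lowest of all. The mean log2(normalized count + 1) differed by -0.13, female minus male, with a 2-sided exact permutation p of 0.879. Because Psma3l is an older symbol of Psma3, reads of that gene could be divided between the rows. RefSeq also lists 2 pseudogenes named for Psma3, with which reads could be shared.

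The structural beta subunits, which have no catalytic site of their own, each had female and male means within 1.2-fold of each other. Psmb1 had 5817 normalized counts in females and 5637 in males, Psmb2 2473 and 2340, and Psmb3 4249 and 3922, and the authors' deposited table put these at 0.05, 0.08 and 0.12 on the log2 scale. Psmb4 was further apart, with 1532 in females and 1292 in males, or 0.25 on the log2 scale (adjusted p = 0.258, authors' deposited table). None of the 4 passed the test. All 4 were positive as scaled by the authors, and Psmb1 turned negative when the groups were scaled to equal sums over rows with a gene symbol.

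Of the 3 constitutive catalytic subunits, 1 was higher in females. Psmb6, which carries the caspase-like activity, had 6752 normalized counts in females and 5213 in males in the authors' deposited table, a fold of 1.30 and a log2 fold change of 0.37 (interval 0.12 to 0.63; DESeq, adjusted p = 0.0330). RefSeq lists 2 pseudogenes named for Psmb6, with which reads could be shared. Psmb5, the chymotrypsin-like subunit, pointed the same way without passing the test, with 3759 in females and 3021 in males, or 0.32 on the log2 scale (interval 0.05 to 0.58; adjusted p = 0.0959, authors' deposited table). Psmb7, the trypsin-like subunit, had 9393 in females and 9887 in males, or -0.07 on the log2 scale (adjusted p = 0.817, authors' deposited table). Whether Psmb6 and Psmb7 differ in their response was not tested. Summed over the 14 core subunits without the immune and tissue-restricted forms, the means were 50446 in females and 50396 in males.

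The immune catalytic subunits did not pass the test in either direction. In the authors' deposited table Psmb8, the immune counterpart of Psmb5, had 179 normalized counts in females and 165 in males, or 0.11 on the log2 scale (interval -0.72 to 0.94; adjusted p = 0.944). Psmb9, the counterpart of Psmb6, had 186 in females and 145 in males, or 0.36 on the log2 scale (interval -0.09 to 0.81; adjusted p = 0.324, authors' deposited table). Psmb10, the counterpart of Psmb7, had 303 in females and 277 in males, or 0.13 on the log2 scale (interval -0.30 to 0.56; adjusted p = 0.809, authors' deposited table). All 3 were positive under each scaling tried, but the intervals reach from lower to higher in females. Such intervals are unreliable where the fold change and the normal quantile of p are both near 0. The width for Psmb8, whose DESeq p was 0.790 before adjustment, was therefore not read as its spread.

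Psmb9 was the one immune subunit whose reads could be placed in all 11 libraries, on the assumption that no library lay below 0.4 or above 2.0 times its group mean. Without that assumption the female mean has 2 solutions, and 20 shifted male means, which come from no true reads, gave 28 solutions within it, so the values by library are less certain than for Psmd10, Psma3l and Psmb11. Low-count members resolved without the assumption did not all keep to it. Psmd10 in females, for example, ran from 5.1 to 43.4 around a mean of 21.2. The assumption also limits the SDs of the values found with it. Its normalized counts were 160, 146, 254, 150 and 222 in females, against 158, 110, 113, 172, 157 and 160 in males. The means were 186 ± 48.6 in females (SD, n = 5) and 145 ± 26.5 in males (SD, n = 6). The upper 2 female libraries stood above every male library, the other 3 fell inside the male range, and the 2 lowest libraries were male. On the log2(normalized count + 1) scale the difference was 0.34, female minus male, with an exact 2-sided permutation p of 0.139, where the smallest p that 5 against 6 libraries can give is 0.00433. On the same assumption, in females alone, Psmb8 ran from 132 to 266 normalized counts with a mean of 179 ± 52.1, and Psmb10 from 224 to 425 with a mean of 303 ± 77.5 (SD, n = 5 each). The library with the most Psmb8 was another than that with the most Psmb9 and Psmb10.

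**Figure D2:**
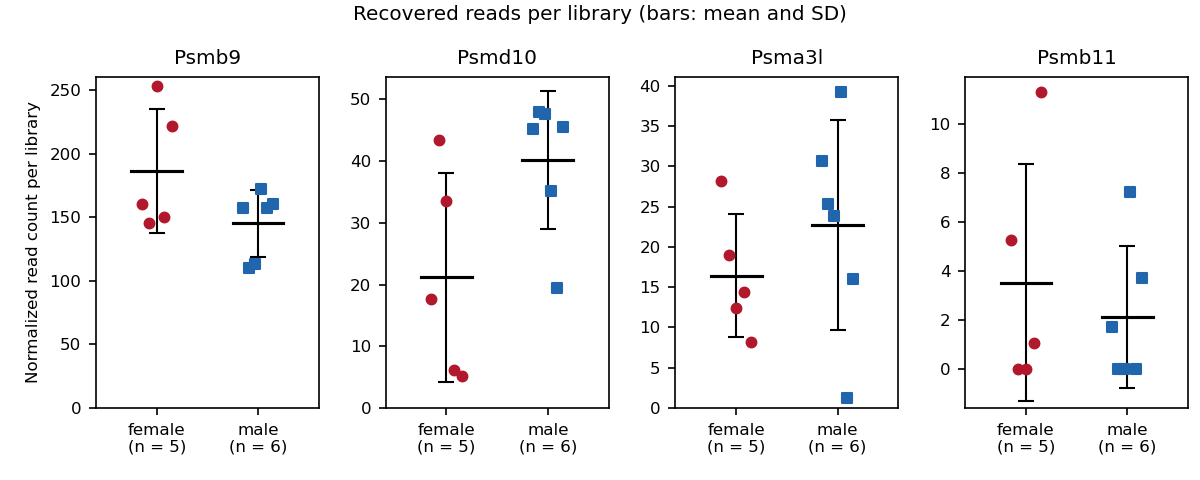
Normalized read count in each library for Psmb9, Psmd10, Psma3l and Psmb11, females (circles, n = 5) beside males (squares, n = 6), with bars at the mean and SD and an axis of its own for each gene. In all 4 genes the sexes overlap, and for Psmd10 3 female libraries lie below every male library.

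Each immune count was also set against its constitutive partner, as a ratio that is not corrected for transcript length and serves only to compare the sexes. Psmb9 was 2.76% of Psmb6 in females and 2.79% in males. Psmb10 was 3.22% of Psmb7 in females and 2.80% in males, and Psmb8 was 4.75% of Psmb5 in females and 5.47% in males. The 3 immune subunits together were 3.35% of the 3 constitutive ones in females and 3.24% in males. The pairs differed in opposite directions, and these ratios were not tested.

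Leukocytes express the immunoproteasome strongly, so their markers are given beside these values. The 15 leukocyte markers listed summed to 13836 normalized counts in females and 12304 in males. Most of either sum was Cd74, the MHC class II invariant chain, at 12856 in females and 11125 in males. Ptprc, the pan-leukocyte surface phosphatase, had 38.3 in females and 49.7 in males. None of the 14 measured markers passed the authors' adjusted p under 0.05, and their median log2 fold change was -0.32, opposite in sign to the difference of the sums. The part of leukocyte RNA in the immune-subunit values was not tested. The 9 cardiac myocyte markers in the table summed to 4245560 in females and 3518677 in males, with 2 called higher, Myh6 and Ryr2, and 0 lower in females. Of all genes with a mean of at least 1000, 27.1% were called in either direction. Myh6, the alpha myosin heavy chain, made up most of that difference, at 1330868 in females and 831771 in males.

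The tissue-restricted core subunits had few or no reads in the table. Psma8, an alpha subunit of the testis, was listed at 0. Since Tap2 and the collagen gene Col1a2 were also listed at 0 beside measured Tap1 and Col1a1, a listed 0 does not show that a transcript is absent. Psmb11, a catalytic subunit of thymic cortical epithelium, lies next to Psmb5 on chromosome 15 in RefSeq. Psmb11 had 6, 0, 0, 1 and 11 reads in the 5 female libraries and 2, 0, 0, 7, 0 and 3 in the 6 male libraries. A single female library held most of the female reads and a single male library most of the male reads, and the exact permutation p of the difference was 0.697.

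**Figure D3:**
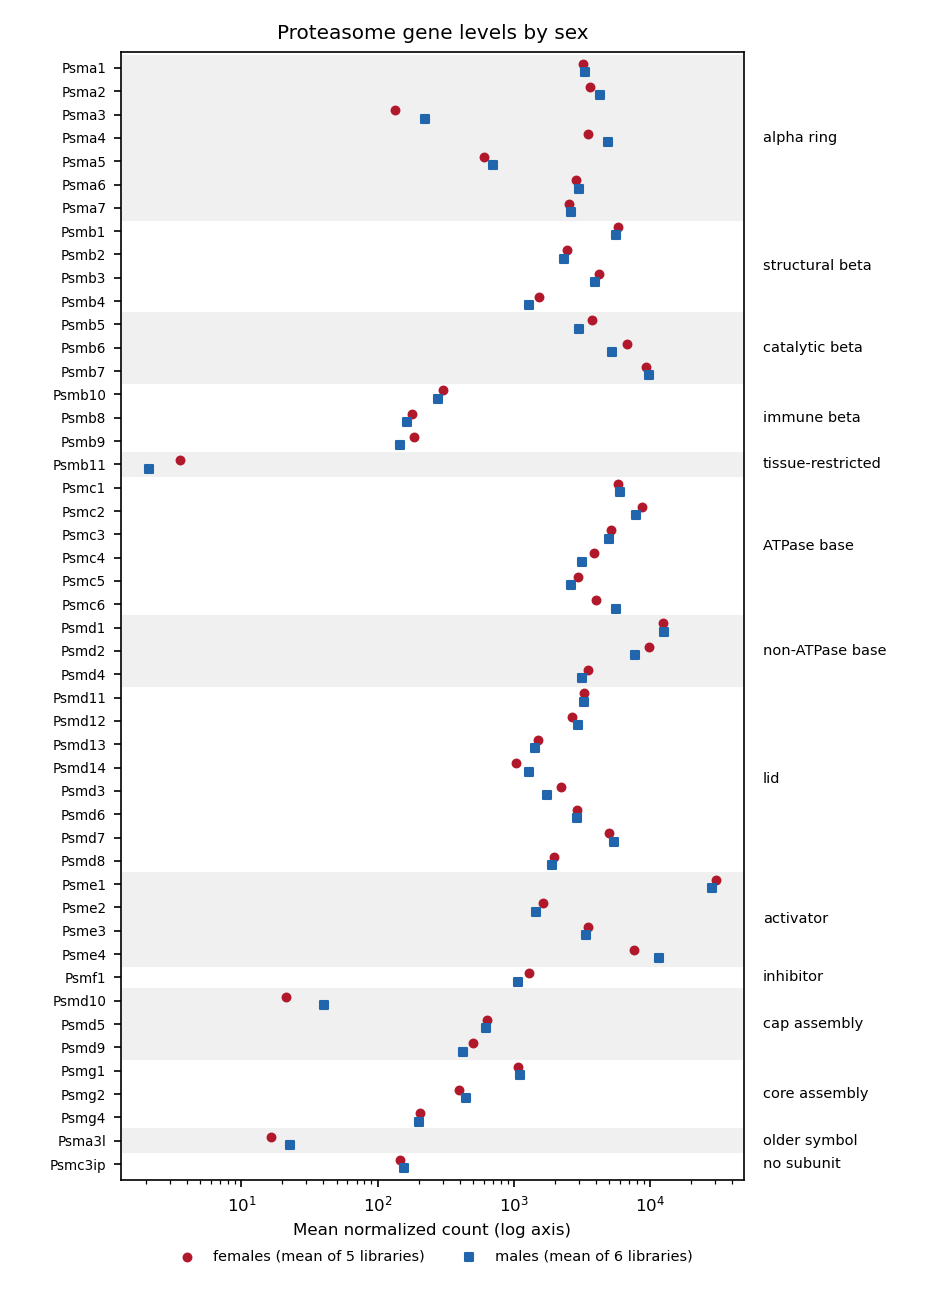
Mean normalized count of each measured proteasome gene on a log axis, females (circles, mean of 5 libraries) and males (squares, mean of 6 libraries), in rows grouped by role. The symbols lie close together in most rows, with visible gaps at Psma3, Psma4, Psmc6, Psme4, Psmd10 and Psma3l, where females are lower, and at Psmb11, where females are higher on few reads, and counts are not corrected for transcript length.

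In the base of the cap, 6 ATPases form the unfolding ring, and 1 of them differed between the sexes. Psmc6 had 4040 normalized counts in females and 5655 in males in the authors' deposited table, a fold of 0.714 and a log2 fold change of -0.49 (interval -0.75 to -0.22; DESeq, adjusted p = 0.00731). RefSeq lists 2 pseudogenes named for Psmc6. Psmc4 pointed the other way, with 3848 in females and 3183 in males, or 0.27 on the log2 scale (adjusted p = 0.153, authors' deposited table). Psmc1, Psmc2, Psmc3 and Psmc5 had log2 fold changes of -0.05, 0.14, 0.04 and 0.17. The sums over the ring were 30485 in females and 30363 in males, so a lower Psmc6 stood beside a near equal total.

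The non-ATPase base subunits did not pass the test. Psmd2, a scaffold that also receives ubiquitin-like carriers, had 9815 in females and 7791 in males, or 0.33 on the log2 scale (interval 0.07 to 0.60; adjusted p = 0.0750, authors' deposited table). Psmd1, the other large scaffold, had 12521 in females and 12720 in males, a log2 fold change of -0.02. Psmd4, a ubiquitin receptor, had 3495 in females and 3185 in males, a log2 fold change of 0.13.

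In the lid, 0 of 8 subunits passed the authors' adjusted p under 0.05 in DESeq, and 2 had an unadjusted p under 0.05. These were Psmd3, with 2228 normalized counts in females and 1752 in males (log2 fold change 0.35, adjusted p = 0.0758), and Psmd14, with 1034 in females and 1288 in males (log2 fold change -0.32, adjusted p = 0.140), both from the authors' deposited table. Psmd14 is the metalloprotease that cuts ubiquitin chains from the substrate. The other 6 lay between -0.13 and 0.06. Among these, Psmd7, the inactive partner of Psmd14, had 4968 in females and 5454 in males. The lid summed to 20569 in females and 20968 in males, and the fold over all 17 cap subunits was 1.02.

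Among the activators, Psme4 was the member with the smallest p of the whole set. Psme4, a single-chain activator that caps the core without ATP and is abundant in testis, had 7588 normalized counts in females and 11694 in males in the authors' deposited table. The fold was 0.649 and the log2 fold change -0.62 (interval -0.91 to -0.34; DESeq, adjusted p = 0.00137). The other activators each had female and male means within 1.2-fold of each other. Psme1 and Psme2, the interferon-induced pair, had 30315 and 1636 in females and 28493 and 1455 in males, with log2 fold changes of 0.09 (interval -0.16 to 0.34) and 0.17 (interval -0.10 to 0.44). Psme3, the nuclear activator of the same family, had 3504 in females and 3363 in males, a log2 fold change of 0.06 (interval -0.19 to 0.31). The authors' deposited table put the adjusted p of these 3 between 0.488 and 0.867. Psmf1, which blocks the core and its activators in vitro, had 1283 in females and 1071 in males, or 0.26 on the log2 scale (interval -0.03 to 0.55; adjusted p = 0.250, authors' deposited table).

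**Figure D4:**
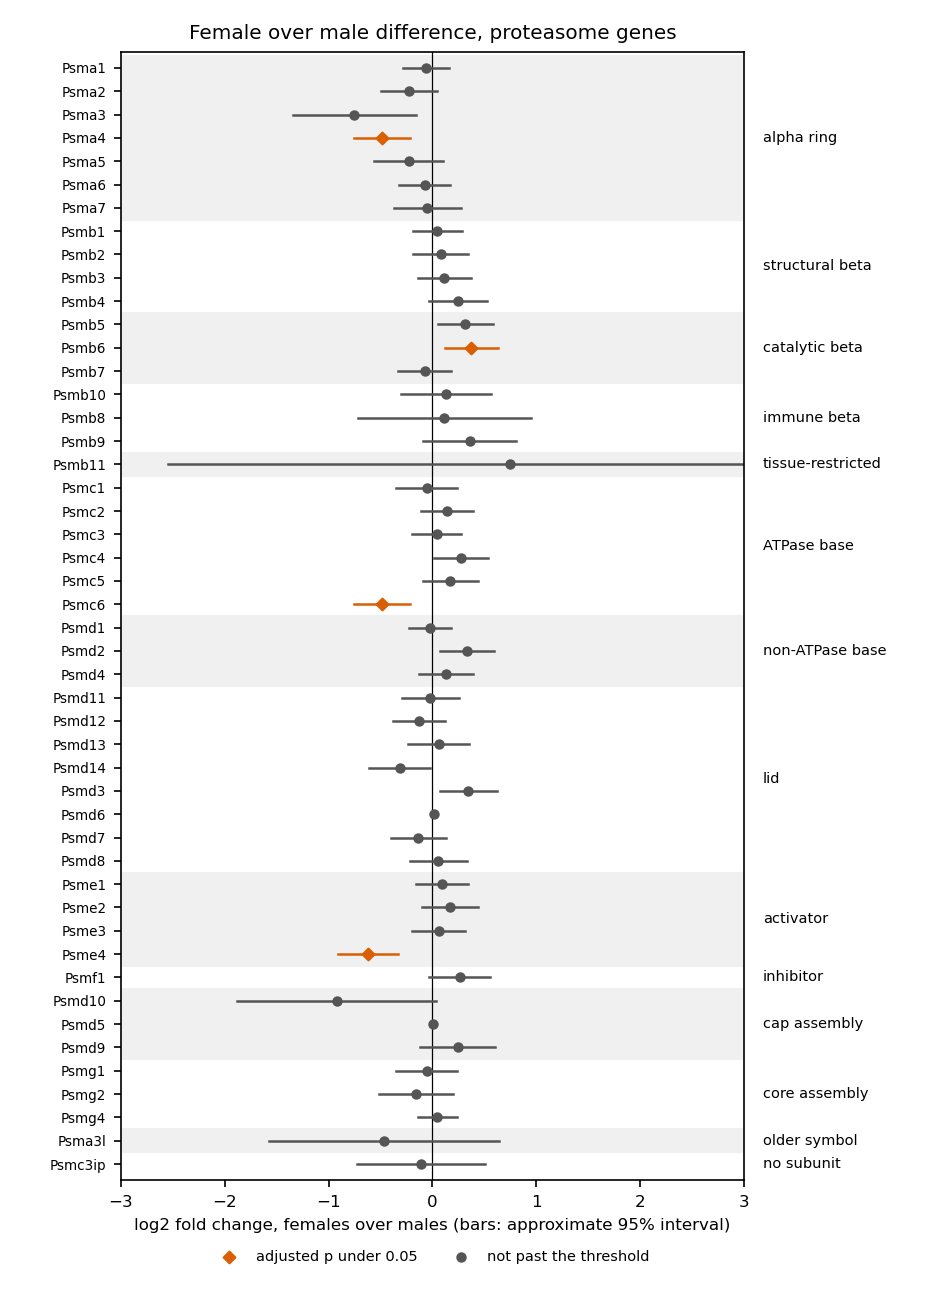
Log2 fold change, females over males, of the 48 measured proteasome genes with approximate 95% intervals from the authors' p, in rows grouped by role; orange diamonds passed the adjusted p under 0.05. The axis ends at -3 and 3, where the Psmb11 bar is cut, Psmd6 and Psmd5 have no bar because their p was over 0.9, and the 7 alpha-ring points lie left of 0.

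Of the chaperones that build the cap, 0 of 3 passed the threshold in the authors' deposited table, and 0 had an unadjusted p under 0.05. Psmd10, also known as gankyrin, which binds Psmc4 and the retinoblastoma protein, had the largest negative log2 fold change of all members, -0.92 (interval -1.88 to 0.03; DESeq, adjusted p = 0.204). Its reads could be placed in every library. Psmd10 normalized counts were 17.6, 43.4, 33.5, 6.2 and 5.1 in the 5 female libraries, against 45.2, 48.0, 47.6, 35.1, 19.5 and 45.6 in the 6 male libraries. The means were 21.2 ± 16.9 in females (SD, n = 5) and 40.2 ± 11.2 in males (SD, n = 6). The lower 3 female libraries lay below every male library and the other 2 inside the male range.

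The Psmd10 difference of mean log2(normalized count + 1) was -1.25 ± 0.549 (SE, limma), female minus male, with an exact 2-sided permutation p of 0.0433 for this gene by itself. It did not pass limma's adjusted p across the 1288 genes with recovered reads, at 0.347, where 2 genes, or 0.155%, passed. Those genes had a mean of at most 100 in females and 45 in males, so this share is not comparable with that of all genes. In data simulated with 1 setting of the spread for every gene, limma called 14% of genes changed 2-fold, so it often missed changes of that size there. The spread of Psmd10 itself was not simulated. Leaving out any of 8 of the 11 libraries took the exact p above 0.05, with p between 0.0159 and 0.0952 over the 11. Psmd5 and Psmd9, the other cap chaperones, had 632 and 499 in females and 628 and 422 in males, with log2 fold changes of 0.01 and 0.24. Of the core chaperones, Psmg1 had 1070 in females and 1111 in males, Psmg2 398 and 445, and Psmg4 206 and 200, with log2 fold changes of -0.05, -0.16 and 0.05. Psmg4 ran from 163 to 239 over the female libraries, on the assumption made for Psmb9. None of the 3 passed the threshold in the authors' deposited table. Psmc3ip, the row matched by name alone, had 145 in females and 157 in males, and the exact permutation p was 0.494 over reads that rest on the same assumption.

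Other genes of the pathway were counted from lists of assembly and cap factors, regulators of proteasome genes, and ubiquitin and substrate delivery. Of 33 measured genes on these lists, 7 were higher and 2 lower in females in the authors' deposited table, which is 27.3% in either direction, against 14.5% of all genes. Most of these genes are abundant: at a mean of at least 1000, 8 of 23 were called, or 34.8%, against 27.1% of all genes that abundant. In assembly and cap, 1 of 8 was higher and 1 lower. Adrm1, another ubiquitin receptor of the cap, had 1707 in females and 1233 in males in the authors' deposited table (log2 fold change 0.47, DESeq, adjusted p = 0.0171). Txnl1, a thioredoxin-like protein that binds the cap, had 2248 in females and 3029 in males in the authors' deposited table (log2 fold change -0.43, DESeq, adjusted p = 0.0224). By the authors' deposited table, Uchl5, the deubiquitinase that binds Adrm1, stood at -0.52 on the log2 scale (adjusted p = 0.135), Zfand5 at -0.35 (adjusted p = 0.0560) and Shfm1, a small lid component, at -0.32 (adjusted p = 0.112). The receptor and its enzyme partner thus had opposite signs, and only Adrm1 passed the test.

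Of the regulators, 1 of 10 was higher and 0 lower. Keap1, which directs the breakdown of Nfe2l2, had 1567 in females and 1148 in males in the authors' deposited table (log2 fold change 0.45, DESeq, adjusted p = 0.0259). By the authors' deposited table, the transcription factor Nfe2l2 stood at -0.29 on the log2 scale (adjusted p = 0.157). Ddi2 and Ngly1, which process the related factor Nfe2l1, stood there at 0.34 and -0.34 (adjusted p = 0.162 and 0.172, authors' deposited table). Nfe2l1 itself was not analysed here.

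The delivery list held most of the calls, with 5 of 15 higher and 1 lower in females, or 40.0% against 14.5% of all genes. At a mean of at least 1000 it had 5 calls among 13 genes, or 38.5%, against the 27.1% given above. The number higher was 7 at an adjusted p under 0.1, 1 under 0.01 and 2 with a fold of at least 1.5. The list was not tested as a set. Uba1, the main ubiquitin-activating enzyme, had 9162 in females and 6963 in males (log2 fold change 0.40, adjusted p = 0.0308), and the shuttle Ubqln2 had 416 and 274 (0.60, adjusted p = 0.0184), both in the authors' deposited table. The shuttle Rad23b had 6577 in females and 8496 in males (log2 fold change -0.37, adjusted p = 0.0465), by DESeq in the authors' deposited table. Rps27a, which encodes ubiquitin fused to a ribosomal protein, stood at -0.35 on the log2 scale and missed the threshold (adjusted p = 0.0754, authors' deposited table). By the authors' deposited table, Nploc4, an adaptor of the segregase Vcp, and the shuttle Ubqln4 stood at 0.37 on the log2 scale each (adjusted p = 0.0549 and 0.0574), and Uba6, another activating enzyme, at -0.33 (adjusted p = 0.159).

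**Figure D5:**
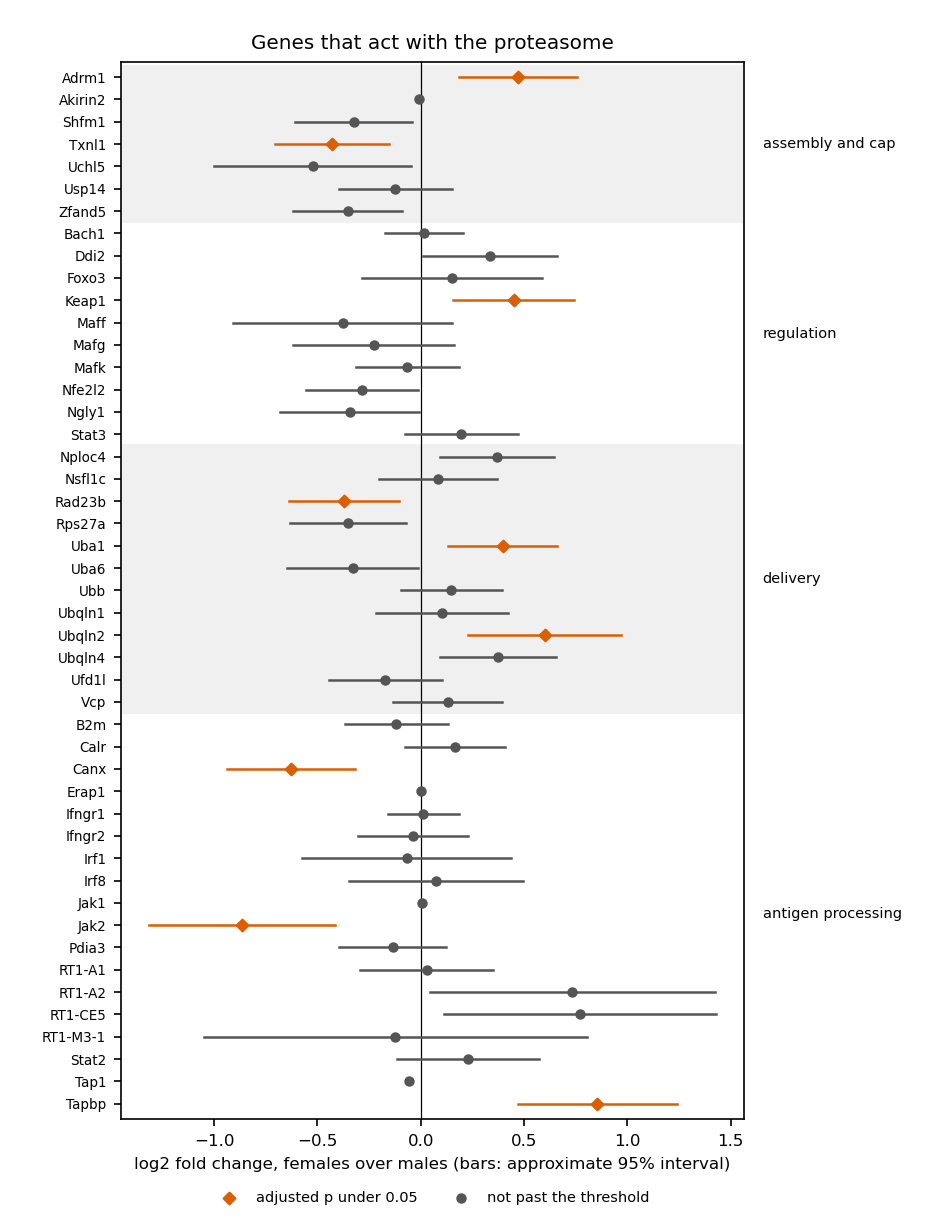
Log2 fold change, females over males, of genes on the assembly, regulation, delivery and antigen-processing lists with approximate 95% intervals from the authors' p; orange diamonds passed the adjusted p under 0.05. Genes with a mean under 10 and those not reported here are not drawn, Akirin2, Erap1, Jak1 and Tap1 have no bar because their p was over 0.9, and calls lie on both sides of 0, such as Ubqln2 at 0.60 and Rad23b at -0.37.

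Genes of antigen processing were counted from a list that holds partners of the immune subunits induced by interferon gamma, chaperones, and components of the interferon receptor and its signalling. Of the 19 measured genes without a Psm name, 1 was higher and 2 were lower in females in the authors' deposited table, or 15.8% against 14.5% of all genes, a share near the background. At a mean of at least 1000, 1 of 9 was called, or 11.1%, against 27.1% of all genes that abundant. Neither share was tested. Tapbp, which loads peptides onto MHC class I, had 708 in females and 391 in males in the authors' deposited table, a fold of 1.81 and a log2 fold change of 0.86 (DESeq, adjusted p = 0.00110). Canx, a chaperone of new class I chains and of many other proteins, had 11628 in females and 17966 in males (log2 fold change -0.63, adjusted p = 0.00267), and the interferon receptor kinase Jak2 had 462 and 842 (-0.87, adjusted p = 0.00464), both in the authors' deposited table. The class I genes RT1-CE5 and RT1-A2, of a family whose members can share reads, had 657 and 351 in females and 385 and 211 in males, and missed the threshold (adjusted p = 0.103 and 0.149, authors' deposited table). The lower RT1-A1 and RT1-M3-1 had 33.2 and 45.8 in females and 32.5 and 49.8 in males. Their log2 fold changes were 0.03 and -0.12, and neither passed the threshold. Tap1, the peptide transporter gene that lies between Psmb8 and Psmb9 in RefSeq, had 191 in females and 199 in males, and Tap2 on the other side of Psmb8 was listed at 0. The interferon-induced factor Irf1 had 6108 in females and 6405 in males, and B2m, the class I light chain, had 54038 in females and 58645 in males; none of these passed the threshold.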

How the data were processed

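The authors deposited 1 table with 17257 genes of 5 female and 6 male libraries. Stranded paired-end libraries were prepared from 650 ng of RNA after removal of ribosomal RNA, with RIN values of 9 or more, per the labels' protocols. The submitters' processing notes name build rn6 and DESeq, HTSeq 0.6.1, TopHat2 2.0.12, Trimmomatic 0.32 and FastQC; the annotation and whether counting used strand are not given in the sources used here. Per the file headers, the deposited values are mean normalized signal (counts over size factors) overall and per group, their ratio, its log2 fold change, a p-value and an adjusted p-value. Groups A and B were read as males and females because the overall mean weighted them 6 to 5 in all 13346 genes with reads. The adjusted p-value equalled a Benjamini-Hochberg adjustment over these genes.

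The deposited p was used as the test. Approximate SEs are the log2 fold change over the normal quantile of p, with none given for p above 0.9. They are unreliable where p is large, since a small fold change is then divided by a small quantile. Since means are sums of whole reads over size factors, reads per library were searched for up to a mean of 100 in females and 45 in males, where exactly 1 solution was found in each of 4487 and 3631 genes. For members, the search went up to 320 in females and 170 in males and took a result only where 1 solution kept every library between 0.4 and 2.0 times the group mean; the female values of Psma3, Psmb8, Psmb9, Psmb10, Psmc3ip and Psmg4 and the male values of Psmb9 and Psmc3ip come from this extension. Without that window all of these but Psma3 had 2 or 3 solutions in females, and in males, searched within it alone, shifted means gave 28 solutions over 20 values for Psmb9 and 39 for Psmc3ip, so these values hold only if no library lay outside it. The sex of a library is known and its replicate number is not; libraries are given in order of falling size factor, 1.14 to 0.972 in females and 1.17 to 0.811 in males. Their recovered reads totalled 39315 to 44208 in females and 32674 to 46911 in males over the genes resolved in both; total depth is not known. Differences used log2(normalized count + 1), exact permutation over libraries (5 members) and limma 3.58.1 in R 4.3.3 over 1288 genes with a mean of at least 10. The steps were tested on simulated data.

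Named were all members past the threshold, all immune, activator, inhibitor and tissue-restricted members, and in the related lists called genes and up to 4 others with the smallest p; further genes were named after their values were seen. A few genes of the lists enter the counts and sums and are not reported here by name. Members and lists were chosen with earlier results of these data known.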

Additional observations from a re-analysis of the deposited data

How the results depend on the processing

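The count of members higher in females depended on the threshold. From 1 at an adjusted p under 0.05 it became 4 under 0.1, 0 under 0.01, and 0 when a fold of at least 1.5 was also required. The count lower in females was 3, 4 under 0.1, 3 under 0.01, and 1, Psme4, with that fold; the cause was not tested beyond the thresholds themselves. Adjusting over genes with a mean of at least 10 left both counts at 1 and 3. The median log2 fold change of the members was 0.04, and -0.02 when scaled to the symbol rows. It was 0.05 when centred on the median of genes with a mean of at least 50.

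Leaving out single libraries moved the Psmd10 difference between -1.61 and -0.89, and the exact p was above 0.05 without female library a, d or e or male library a, b, c, d or f, letters following the order of size factors. Limma's adjusted p for Psmd10 ran from 0.241 to 0.539. The Psma3l difference ran from -0.73 to 0.10 and reversed without female e (0.07), male a (0.03) or male d (0.10). Psmb11 ran from -0.20 to 0.73 and reversed without female e (-0.20). Psmb9 ran from 0.22 to 0.42.

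No paired analysis was possible because the group means and the recovered libraries carry no replicate number. Leaving out a library could not be done for the genes known by group mean alone, which include the 4 called members. Low counts limit Psmd10, Psma3l and Psmb11, and the recovered counts carry counting error besides the spread between rats.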
